A study of Mus musculus with 6 samples.

Results

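The genes described here encode the machinery that folds, modifies and exports collagen and other secreted proteins: chaperones of the endoplasmic reticulum (ER), protein disulfide isomerases, collagen hydroxylases, the translocon, coat and retrieval proteins, and transcription factors of the unfolded protein response. They were chosen by gene symbol, and 47 of 48 listed genes had a probe set that named only them, out of 18193 genes measured in all. The exception, Fkbp10, was not analysed here. Between them the 47 genes had 96 probe sets.

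The animals were C57BL/6 males, 3 in number and 8 weeks old, and all of them had received saline into the peritoneum, so that no untreated group stands beside them. Femurs were scraped free of muscle and periosteum and their ends cut off. Each shaft was flushed with buffer, and the pelleted cells gave the 3 central bone marrow samples. Trizol, a phenol-based lysis reagent, was then passed through the emptied shafts and gave the 3 endosteal samples. These were meant to hold RNA of cells still attached to the inner bone surface. They also held skeletal muscle transcripts, as given below, whose origin was not tested. The question of the study is which transcripts mark the inner bone surface, where a niche of haematopoietic stem cells is sought. Each sample was hybridised to 1 Affymetrix mouse array.

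A collagen chain enters the ER through the translocon while it is being translated. There, prolyl and lysyl residues are hydroxylated, some hydroxylysines are glycosylated, and 3 chains wind into a triple helix that dedicated chaperones and prolyl isomerases hold until export. The long, stiff procollagen leaves the ER in enlarged COPII-coated carriers, and escaped ER residents are brought back by KDEL receptors. Osteoblasts make more type I collagen than any other protein, and inherited defects of several of these genes (among them Serpinh1, Crtap, P3h1, Ppib, Plod2, Creb3l1 and Sec24d) cause brittle bone disease or related syndromes.

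Signals are the authors' deposited linear intensities, and every gene stands for its brightest probe set. Log2 changes are endosteal minus central on the log2(signal + 16) scale, which understates the change of dim genes. A gene is called when its adjusted p in limma (Benjamini-Hochberg over all 18193 genes, 3 against 3 arrays, two-sided) was below 0.05. The level of one probe set cannot be set against that of another. Only 6 arrays were available, which limits the precision.

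On those terms, 17 of the 47 genes were called higher in endosteal RNA and 0 lower. Among all genes the limma fit called 7.92% higher and 4.02% lower. At an unadjusted p below 0.05 in the same fit, 25 of the 47 were higher and 1, Colgalt1, was lower, against 17.9% and 11.3% of all genes. The median log2 change of the 47 genes was 0.52, against 0.10 for all genes. The 3 endosteal arrays all lay above the 3 central ones for 29 of the 47 genes (22.3% of all genes) and all below them for 4 (15.4% of all genes). In whole-tissue RNA, more cells of a type and more RNA per cell cannot be told apart.

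The called changes ran from 0.55 for Ssr2 to 4.06 for Serpinh1. Of the 17 genes, 8 changed by more than 1 on the log2 scale: the collagen chaperone Serpinh1, the lysyl hydroxylase Plod2, the hydroxylase cofactor Crtap, the prolyl isomerases Fkbp7, Fkbp9 and Fkbp14, the calcium-binding protein Rcn3 and the retrieval receptor Kdelr3. All but Kdelr3 kept their call whichever of the 6 arrays was left out. The other 9 called genes, most of which serve secreted proteins in general, changed by 0.55 to 0.95, and 6 of these (Hspa5, Canx, Pdia3, Ssr2, Ssr3 and Creb3l2) lost their call whichever array was left out. The 16 collagen hydroxylase, collagen chaperone, isomerase and reticulocalbin genes had a median of 1.36, and the 31 remaining genes 0.27; these 2 sets were put together after the values were seen. With the letter (A, B or C) as a replicate block, 2 of the 17 calls remained, Fkbp7 and Fkbp14, and the other 15 had adjusted p from 0.0502 to 0.110; the background of that fit was 0.786% called higher.

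**Figure D1:**
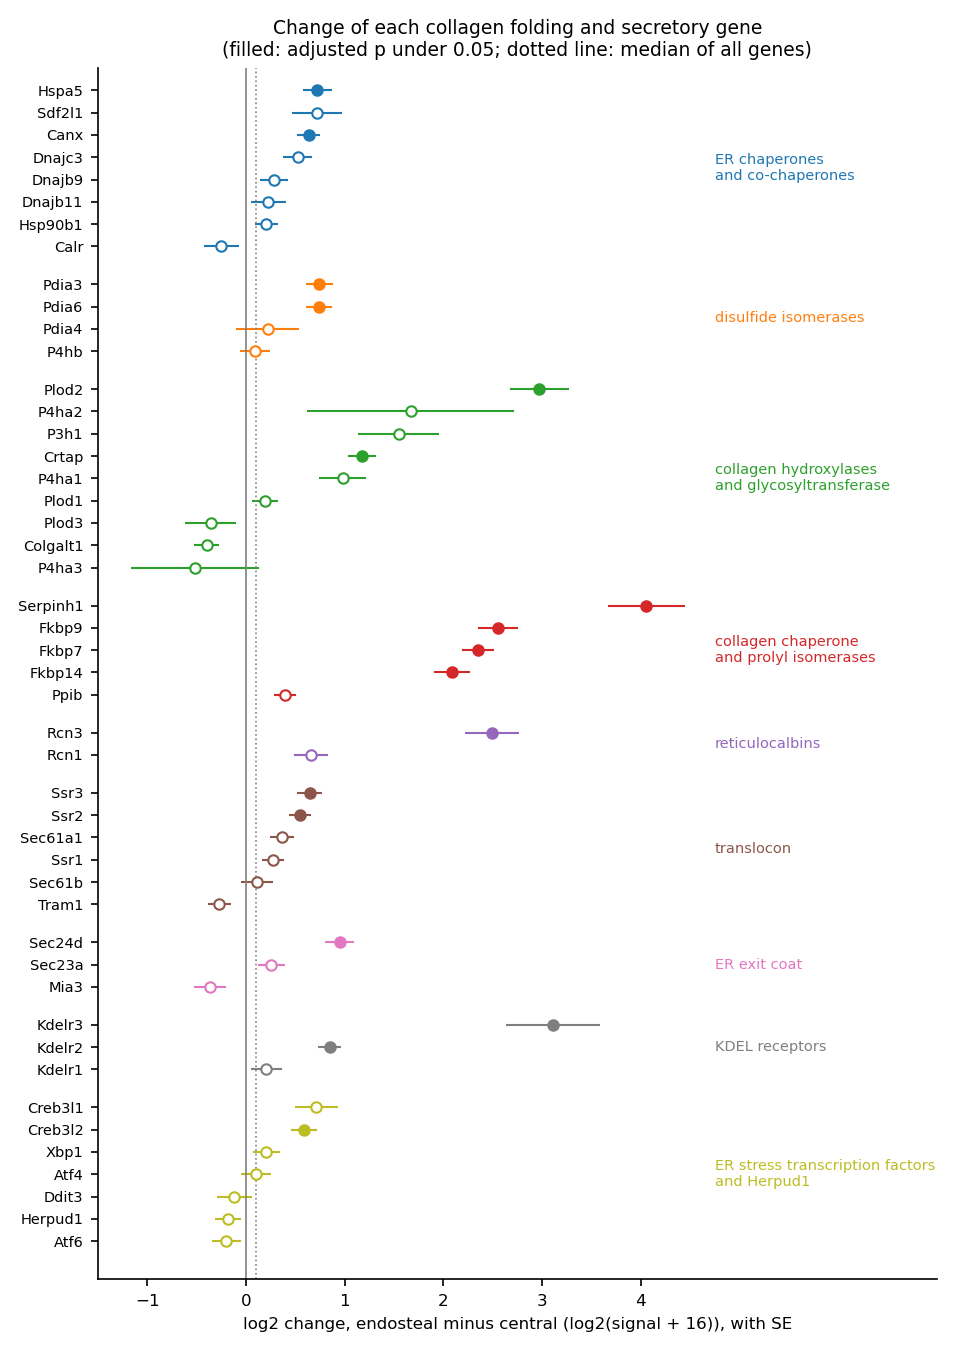
Log2 change (endosteal minus central, with its standard error) of each of the 47 genes, grouped by role; filled circles passed the adjusted p threshold and the dotted line marks the median of all genes, 0.10. The largest changes, up to 4.06 for Serpinh1, lie among the collagen chaperone and isomerase genes, the hydroxylases, Rcn3 and Kdelr3, while no filled circle lies below 0.

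Serpinh1 encodes the chaperone that binds only procollagen and stops its chains from aggregating. Its signal was 59.1, 128 and 181 in central RNA, in the order of the sample letters used throughout, and 2753, 1851 and 1881 in endosteal RNA. The groups were far apart, with the lowest endosteal array above every central one. The mean rose 17.6-fold, and the log2 change was 4.06 (SE 0.39, adjusted p = 0.00631). A second, dimmer Serpinh1 probe set rose by 2.90 and was called as well when all probe sets were tested separately (adjusted p = 0.0369).

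The FKBP-type prolyl isomerases Fkbp7, Fkbp9 and Fkbp14, ER enzymes that help proline-rich chains fold, all rose. Fkbp9 had signals of 520, 465 and 685 in central and 3932, 2976 and 3074 in endosteal RNA, a log2 change of 2.55 (SE 0.20, adjusted p = 0.00405). Fkbp7 read 180, 156 and 150 against 1033, 885 and 767, a log2 change of 2.35 (SE 0.16, adjusted p = 0.00284). Fkbp14, the isomerase whose loss causes a form of Ehlers-Danlos syndrome, read 46.5, 54.4 and 67.9 against 304, 243 and 326, a log2 change of 2.09 (SE 0.18, adjusted p = 0.00483). In each case the 2 regions did not overlap. A dim second probe set of Fkbp14, with means of 36.3 and 29.4, gave a log2 difference of -0.43, and the mean over both probe sets gave 0.83 and was not called.

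Ppib, the cyclophilin that works in a complex with P3h1 and Crtap, was bright in both regions, with 9132, 9622 and 9233 in central and 12513, 11735 and 12498 in endosteal RNA. All endosteal arrays were higher, but the change of 0.39 (SE 0.11) did not pass (adjusted p = 0.0806). Its other probe set changed by 0.79 and was called (adjusted p = 0.0418 over all probe sets). The log2 differences of the isomerases thus ran from 0.39 for Ppib to 2.55 for Fkbp9.

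Among the hydroxylases, Plod2 changed most. It encodes the lysyl hydroxylase that acts on the ends of collagen chains and so sets the type of crosslink in bone. Its signals were 54.6, 98.8 and 58.1 in central and 879, 641 and 480 in endosteal RNA. No arrays overlapped, the mean was 9.46 times higher, and the log2 change was 2.97 (SE 0.30, adjusted p = 0.00664). Its other, dimmer probe set changed by 2.27 (SE 0.57) without overlap and was not called over all probe sets (limma adjusted p = 0.0847). The sister enzymes were not called: the log2 difference was 0.19 for Plod1 (SE 0.13, adjusted p = 0.379) and -0.36 for Plod3, which also carries glycosyltransferase activity (SE 0.26, adjusted p = 0.414).

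The complex that adds a hydroxyl group at the 3 position of proline is made of P3h1, Crtap and Ppib. Crtap, its non-enzymatic partner, read 490, 430 and 516 in central and 1224, 1072 and 1016 in endosteal RNA (log2 change 1.18, SE 0.14, adjusted p = 0.0101). P3h1, the enzyme, read 57.7, 114 and 45.7 against 204, 372 and 157. Its regions did not overlap either, but the change of 1.55 had an SE of 0.41 and missed the threshold (adjusted p = 0.0674). Over alternatives its adjusted p ran from 0.00362 with poly-A scaling to 0.183.

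Prolyl 4-hydroxylase, which stabilises the triple helix, joins a catalytic alpha subunit to the disulfide isomerase P4hb. The alpha subunit gene P4ha1 read 205, 261 and 188 in central and 593, 351 and 414 in endosteal RNA. Every endosteal array was higher, and the change of 0.98 (SE 0.24) lay just outside the threshold (adjusted p = 0.0542). Over alternatives its adjusted p ran from 0.00279 with poly-A scaling to 0.151. P4ha2 was not measured evenly: 37.1, 14.6 and 3.22 in central against 160, 268 and 4.19 in endosteal RNA, so that endosteal array C sat with the central arrays (log2 change 1.67, SE 1.05, adjusted p = 0.354). Of the 6 fits that each left out 1 array, P4ha2 was called only without endosteal array C (2.83, limma adjusted p = 0.0455). That fit called 5.1% of all genes higher. It dropped the endosteal array that read low, so its call is no support for a rise. In the other fits the limma adjusted p reached 0.617, and the central signals were near background. P4ha3 was dim throughout, between 5.07 and 96.2, too near background for a difference to be read. Colgalt1, which attaches galactose to hydroxylysine, read 2664, 2314 and 2516 in central and 1917, 1774 and 1979 in endosteal RNA; every endosteal array was lower, with a change of -0.40 (SE 0.13, adjusted p = 0.0987).

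Reticulocalbins are calcium-binding proteins of the ER lumen, and Rcn3 has been linked to collagen production. Rcn3 read 117, 214 and 120 in central and 1043, 725 and 921 in endosteal RNA, a log2 change of 2.49 (SE 0.27, adjusted p = 0.00835) with no overlap. Rcn1 read 494, 532 and 568 against 758, 1036 and 772. Its regions were also apart, but by less (log2 change 0.66, SE 0.17, adjusted p = 0.0611).

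**Figure D2:**
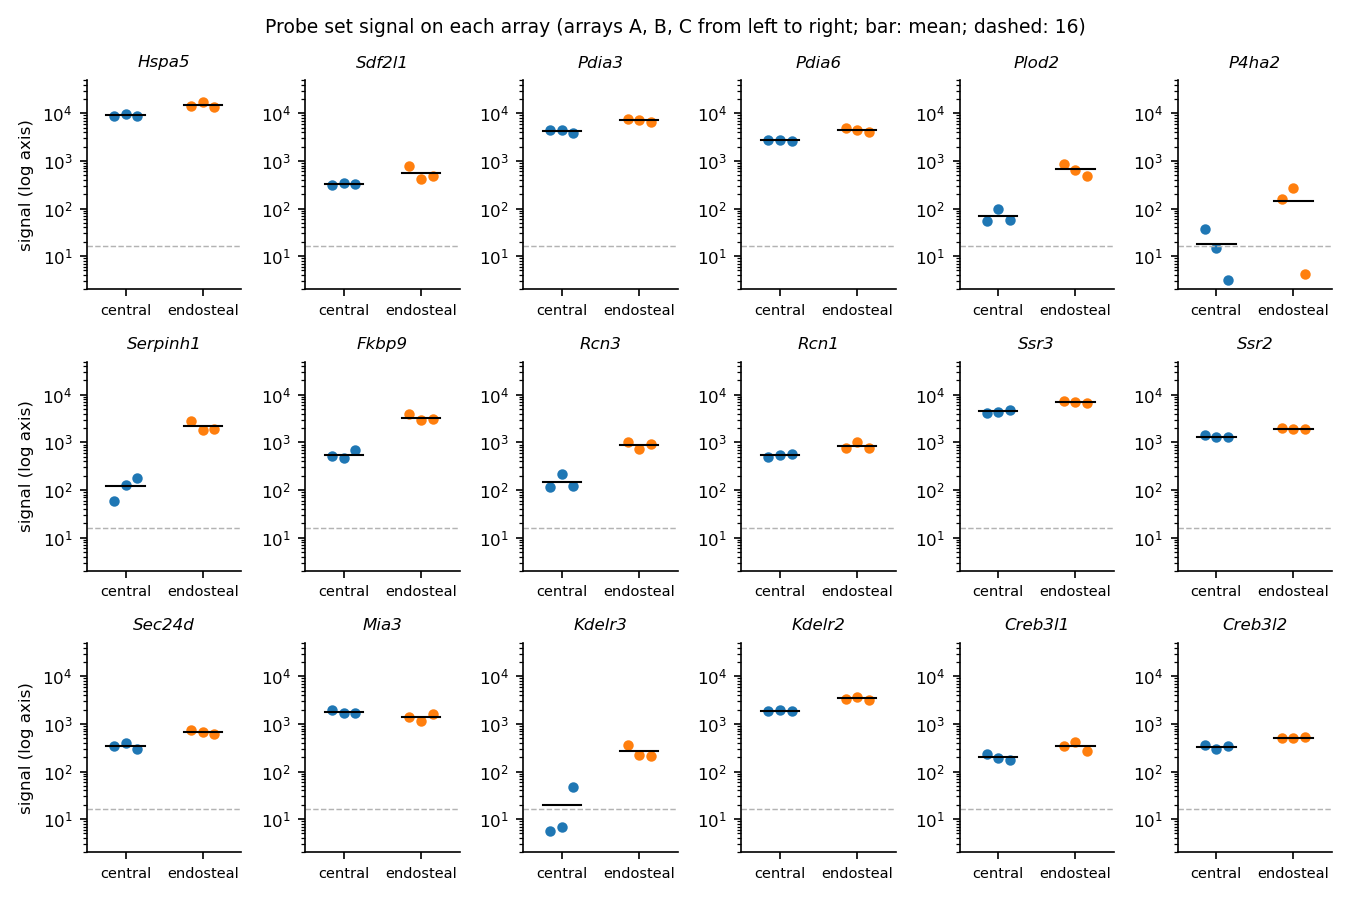
Signal on each array (log axis, arbitrary units) of the 18 genes with the largest change in their role group, 2 per group; blue points are central and orange points endosteal arrays A, B and C from left to right, bars are means, and the dashed line marks 16. Serpinh1, Plod2, Fkbp9, Rcn3 and Kdelr3 show wide gaps between the regions, Hspa5, Ssr2 and Ssr3 show narrow gaps, and endosteal array C of P4ha2 falls to 4.19.

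Among the general chaperones of the ER, 2 of 8 were called, with differences below 1. Hspa5 encodes BiP, the ER member of the Hsp70 family and the usual readout of ER stress. It read 8599, 9783 and 8680 in central and 14330, 17243 and 13367 in endosteal RNA. Every endosteal array was higher, with a mean 1.66 times the central one (log2 change 0.72, SE 0.15, adjusted p = 0.0374). The other Hspa5 probe sets gave 0.39 and 0.05. Canx, the membrane-bound lectin chaperone calnexin, read 4837, 5396 and 5340 against 8049, 8056 and 8111 (log2 change 0.64, SE 0.12, adjusted p = 0.0274). The other Canx probe sets gave 0.96 and 0.22. Its soluble relative Calr, calreticulin, read 15677, 15827 and 15111 against 14370, 14905 and 10429; all endosteal arrays were lower, endosteal C most, and the change of -0.25 (SE 0.18) did not pass (adjusted p = 0.408).

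Hsp90b1, the ER form of Hsp90, had a log2 difference of 0.21 (SE 0.11, adjusted p = 0.295) without overlap between the regions. Its other, dimmer probe set gave 0.69, also without overlap, and was not called over all probe sets (limma adjusted p = 0.0648). The J-domain partners of BiP, Dnajb9, Dnajb11 and Dnajc3, gave log2 differences of 0.29, 0.23 and 0.52, and Sdf2l1, a cofactor of the BiP cycle, gave 0.72; their adjusted p lay between 0.0791 and 0.467. Sdf2l1 read 314, 336 and 320 in central and 797, 422 and 472 in endosteal RNA. Endosteal array A stood well above B and C for that gene.

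Of the disulfide isomerases, which form and reshuffle disulfide bonds, Pdia3 and Pdia6 were called. Pdia3, the partner of calnexin and calreticulin, read 4371, 4516 and 3762 in central and 7563, 7111 and 6503 in endosteal RNA (log2 change 0.74, SE 0.14, adjusted p = 0.0287). A dim second probe set of Pdia3, with means of 52.9 and 59.3, gave 0.05. Pdia6 read 2686, 2806 and 2603 against 4992, 4506 and 4105 (log2 change 0.74, SE 0.13, adjusted p = 0.0253). On these brightest probe sets, neither gene's regions overlapped. P4hb, the beta subunit of prolyl 4-hydroxylase, read 8821, 8412 and 7693 against 10357, 8471 and 7874, with the regions interleaved (log2 change 0.09, SE 0.15, adjusted p = 0.742). Pdia4 gave a log2 difference of 0.22 (SE 0.32, adjusted p = 0.699).

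Many ER chaperone genes carry the ER stress response element (ERSE) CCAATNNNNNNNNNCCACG, at which NF-Y and ATF6 bind. It was searched on both strands of RefSeq promoter windows of GRCm38.p6, from 250 bases before to 50 after a start, which were at hand for 39 of the 47 genes. A match was found in 6 of the 39 genes (15.4%) and in 37 of 27025 genes with a window (0.137%). The set was chosen to hold ER chaperone and unfolded protein response genes, so these shares are no test of enrichment. The same holds for the related elements below. The 6 are all chaperones, co-chaperones or isomerases. They are printed 5′ to 3′ on the gene's strand with the match in capitals, because the same element stands before genes that were called and genes that were not.
Hspa5, chr2:34772005-34772063, plus strand: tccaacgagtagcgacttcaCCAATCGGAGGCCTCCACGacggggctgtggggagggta
Canx, chr11:50325780-50325838, minus strand: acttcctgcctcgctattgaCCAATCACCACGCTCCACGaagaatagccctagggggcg
Pdia6, chr12:17266471-17266529, plus strand: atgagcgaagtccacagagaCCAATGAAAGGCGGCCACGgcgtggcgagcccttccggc
Dnajc3, chr14:118937807-118937865, plus strand: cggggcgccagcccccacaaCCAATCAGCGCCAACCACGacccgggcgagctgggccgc
Hsp90b1, first match, chr10:86705618-86705676, minus strand: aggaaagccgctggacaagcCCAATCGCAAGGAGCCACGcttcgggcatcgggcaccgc
Hsp90b1, next match, inverted, chr10:86705513-86705571, minus strand: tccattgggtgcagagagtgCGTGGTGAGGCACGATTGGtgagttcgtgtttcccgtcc
Calr, inverted, chr8:84847055-84847113, minus strand: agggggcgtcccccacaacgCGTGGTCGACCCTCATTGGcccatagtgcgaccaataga

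On their brightest probe sets, Hspa5, Canx and Pdia6 were called higher, whereas Dnajc3, Hsp90b1 and Calr, at 0.52, 0.21 and -0.25, were not. This contrast depends on the probe set, as the other Hsp90b1 probe set gave 0.69. When all probe sets of the array were tested separately, none of these 6 genes had a called probe set. Over all 20 measured genes with an ERSE match, these 6 included, 5 were called higher and 2 lower, against 7.92% and 4.02% of all genes, with a median log2 change of 0.19 against 0.10. The parts of the element are common on their own: CCAAT stood in 64.1% of the 39 genes and 41.1% of all genes, and CCACG in 76.9% and 35.5%. Serpinh1, Kdelr3, Fkbp7, Fkbp9, Fkbp14, Crtap and Rcn3, the called genes with a window and a change of more than 1, had no full ERSE in it. A match is a string of letters and not evidence of binding.

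Of the 6 translocon genes, Ssr2 and Ssr3, subunits of the translocon-associated protein complex, were called. Ssr3 read 4207, 4445 and 4902 in central and 7296, 7105 and 6776 in endosteal RNA (log2 change 0.64, SE 0.12, adjusted p = 0.0308), and Ssr2 read 1396, 1270 and 1271 against 1970, 1895 and 1903 (log2 change 0.55, SE 0.12, adjusted p = 0.0389). Both were free of overlap. The other Ssr3 probe set gave 0.26, with overlap between the regions. Sec61a1, the channel itself, gave a log2 difference of 0.37, Ssr1 of 0.27 and the small channel subunit Sec61b of 0.11, with adjusted p between 0.120 and 0.692. The other Ssr1 probe sets gave 0.74 and 0.65, with all endosteal arrays higher, and -0.61, with all central arrays higher. The Sec61a1 probe sets ran from -0.16 to 0.45. Tram1, which helps nascent chains into the membrane, read 5455, 5660 and 6105 against 4641, 4771 and 4858; all endosteal arrays were lower, with a change of -0.27 (SE 0.12, adjusted p = 0.196).

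At the exit from the ER, Sec24d, a cargo-binding subunit of the COPII coat needed for procollagen export, read 336, 392 and 304 in central and 739, 666 and 625 in endosteal RNA. The regions were apart, and the log2 change was 0.95 (SE 0.15, adjusted p = 0.0192). Its coat partner Sec23a read 966, 1101 and 1076 against 1161, 1228 and 1382 (log2 change 0.26, SE 0.13, adjusted p = 0.267). Mia3 encodes TANGO1, the receptor that packs procollagen into carriers. It read 1935, 1685 and 1735 against 1413, 1162 and 1610, with every endosteal array lower (log2 change -0.36, SE 0.16, adjusted p = 0.215). All 4 of its probe sets gave values below 0, and none of them was called.

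KDEL receptors return chaperones from the Golgi, and 2 of the 3 genes were called. Kdelr3 read 5.70, 6.76 and 47.7 in central RNA, near background, and 356, 225 and 210 in endosteal RNA (log2 change 3.11, SE 0.48, adjusted p = 0.0180). With so low a central signal the size is uncertain, and it ran from 1.97 to 4.24 over alternatives. Kdelr2 read 1846, 1962 and 1883 against 3363, 3695 and 3231 (log2 change 0.85, SE 0.12, adjusted p = 0.0149), without overlap. The other Kdelr2 probe set gave 0.19 and was not called over all probe sets (limma adjusted p = 0.528). Kdelr1 read 1200, 1036 and 1116 against 1412, 1081 and 1408; the regions overlapped (log2 change 0.21, SE 0.16, adjusted p = 0.448).

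The unfolded protein response element (UPRE) TGACGTGG, bound by XBP1 and by factors of the CREB3 family, was searched in the same windows after the values had been seen. It matched in 3 of the 39 genes (7.69%), Sec23a, Sec24d and Kdelr3, and in 0.714% of all genes with a window. All 3 belong to ER exit and retrieval. Within it lie the shorter strings TGACGT (25.6% of the 39 genes, 8.37% of all) and, read on the other strand, CCACG. The windows of Sec24d and Kdelr3 are printed with the match in capitals and up to 20 bases on each side; the match of Sec23a lies past its start.
Sec24d, chr3:123267450-123267495, plus strand: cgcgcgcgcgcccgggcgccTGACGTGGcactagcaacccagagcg
Kdelr3, inverted, chr15:79516358-79516405, plus strand: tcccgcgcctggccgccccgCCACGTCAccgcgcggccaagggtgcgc

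Sec24d and Kdelr3 were called higher and Sec23a was not. Over all 143 measured genes with this string, 12 were called higher and 5 lower, with a median of 0.15. Those shares, 8.39% and 3.5%, lie near the 7.92% and 4.02% of all genes, whose median was 0.10. A shorter form of the ERSE, ERSE-II (ATTGG and CCACG with 1 base between them), also searched after the values had been seen, matched in Dnajb11 and Herpud1 (5.13% of the 39 genes, 0.0444% of all), which were not called.

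Of the 7 genes that comprise the transcription factors and Herpud1, 1 was called. Creb3l2, a membrane-bound factor that drives Sec23a in chondrocytes, read 369, 298 and 336 in central and 508, 501 and 521 in endosteal RNA (log2 change 0.59, SE 0.13, adjusted p = 0.0424). Its relative Creb3l1, an activator of collagen genes in osteoblasts, read 236, 191 and 175 against 341, 425 and 264; the regions were apart but the change of 0.71 (SE 0.22) did not pass (adjusted p = 0.0909). Atf6, Atf4 and Ddit3, the membrane sensor, the factor of the integrated stress response and its target that encodes CHOP, gave log2 differences of -0.20, 0.10 and -0.12. Herpud1, a component of ER-associated degradation, gave -0.18. These 4 genes had adjusted p between 0.404 and 0.708, and their arrays overlapped.

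Xbp1, whose spliced form is the main activator of ER expansion in secretory cells, was called on 1 probe set and not on the others. The 2 brightest gave log2 differences of 0.21 (adjusted p = 0.381 over genes) and 0.05. The dimmest of its 4 probe sets read 199, 209 and 193 in central and 391, 351 and 413 in endosteal RNA, changed by 0.89, and was called over all probe sets (adjusted p = 0.0340). Splicing of Xbp1 was not measured. Plasma cells use Xbp1 heavily. Of 8 plasma cell markers measured, Xbp1 among them, Sdc1 and Prdm1 were called higher and Irf4 lower. Their summed signals were 20471 to 23433 on central and 24821 to 28260 on endosteal arrays. These sums include Xbp1 itself, with means of 7814 and 9041, and Jchain, with means of 9854 and 14337. Among the markers not called, Jchain and Tnfrsf17 gave 0.54 and 0.85, and Mzb1 and Derl3 gave -0.45 and -0.21. The part of plasma cells in these values was not tested.

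**Figure D3:**
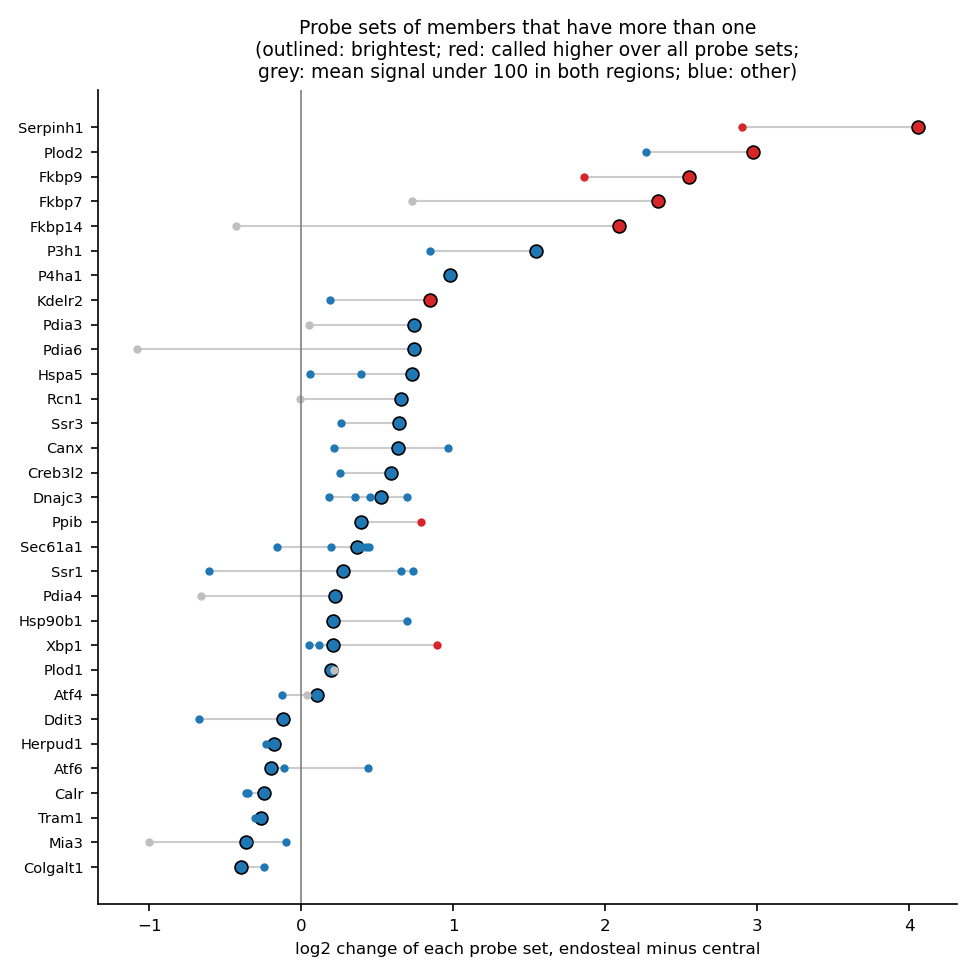
Log2 change of every probe set of the 31 genes that have more than 1; outlined points are the brightest probe set, red points were called higher when all probe sets of the array were tested, and grey points had means under 100 in both regions. Both probe sets of Serpinh1 and of Fkbp9 are red, whereas for Xbp1 and Ppib the red point is not the brightest one.

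Of the 96 probe sets, 14 were called higher and 0 lower when every probe set of the array was tested in limma on its own, against 3.22% and 1.33% of all 45101. The 14 belonged to 12 genes. The endosteal arrays all lay higher for 47 of the 96 and all lower for 7, against 17.8% and 13.6% of all probe sets. Of the 31 genes with several probe sets, 17 had values above 0 in all, 6 had values below 0 in all (Calr, Colgalt1, Ddit3, Herpud1, Mia3 and Tram1) and 8 had both signs. Pdia6 was among these 8: its brightest probe set gave 0.74 and its other one, with means of 61.8 and 32.7, gave -1.08.

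Other genes of the pathway were taken from lists by role, 109 genes in all. Of these, 17 were called higher (15.6%) and 2 lower (1.83%), against 7.92% and 4.02% of all genes. The median of the 109 genes was 0.19. Enzymes and binding proteins of collagen modification had 6 of 12 called higher. In that list Lox, which crosslinks secreted collagen, went from 53.9 ± 36.4 to 975 ± 82.0 (SD, n = 3), a log2 change of 4.01 (limma adjusted p = 0.0105), and Bmp1, which cuts off the procollagen end piece, from 52.9 ± 32.1 to 339 ± 141, a change of 2.38 (limma adjusted p = 0.0330). The P3h1 relatives P3h2 and P3h3 rose by 2.61 and 1.54, the reticulocalbin relative Calu by 0.99 and the isomerase Fkbp2 by 0.86.

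The remaining lists hold general export genes. The oligosaccharyltransferase, which attaches N-glycans, had 2 of 12 called higher, Rpn1 at 0.88 and Stt3a at 0.52. Translocation and signal peptidase genes had 2 of 17, Spcs2 at 0.68 and Ssr4 at 0.50, although the mean of the Ssr4 probe sets gave 0.014. In the COPII list 3 of 20 were called, led by Trappc2 at 0.86, which binds TANGO1. The COPI list, for transport back to the ER, had 1 of 11, Copz2, which went from 52.5 ± 6.83 to 300 ± 45.2 (SD, n = 3), a change of 2.20. Of 13 disulfide formation genes, Pdia5 was called higher at 0.87 and the oxidase gene Ero1b lower at -0.72, although the mean of the Ero1b probe sets gave 0.12. Of 24 genes of the unfolded protein response and ER-associated degradation, Manf (0.75) and Creld2 (0.80) were called higher and the ubiquitin ligase gene Syvn1 lower (-0.82); their median was -0.08.

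**Figure D4:**
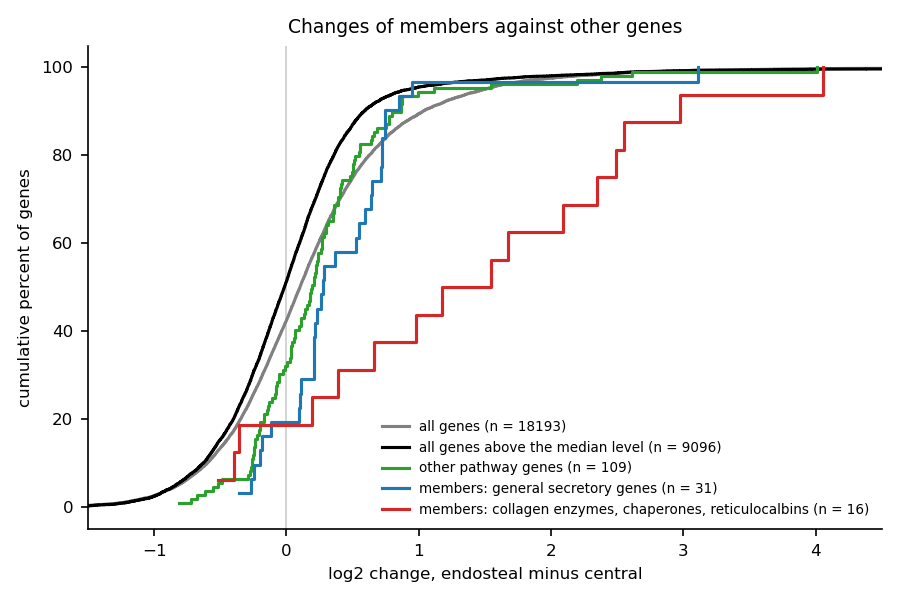
Cumulative percent of genes by log2 change for all genes, genes above the median level, 109 other pathway genes, 16 collagen enzyme, chaperone and reticulocalbin genes of the set and its 31 remaining genes. The 31 are labelled general secretory genes, but P4hb, Mia3, Sec24d and Creb3l1 among them also serve collagen. This split was made after the values were seen. The curve of the 16 genes runs furthest to the right, with a median of 1.36. The median was 0.27 for the 31 remaining genes and -0.02 for all genes above the median level.

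Of the 47 genes, 41 had a level above the median of all genes, so the background was also read among such genes. In a limma fit over those 9096 genes, 22 of the 41 were called higher and 1, Colgalt1, lower, against 17.5% and 19.0% of all genes in that fit. The level was the mean over all 6 arrays, so a high endosteal signal alone could carry a gene past it. Serpinh1 and Plod2, with central means of 123 and 70.5, passed, whereas Pdia4, with means of 167 and 188, did not. The background in that fit is thus not matched for central level. Endosteal array A carried the highest endosteal signal for 26 of the 47 genes and for 12 of the 17 called ones (70.6%). Among all genes called higher that share was 44.8%, and among all genes 34.3%. Without endosteal array A, 8 of the 47 genes were called higher, and without central array A 7.

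Markers of several cell types were called on the same arrays, where 7.92% of all genes were called higher and 4.02% lower. Of 7 measured type I collagen and osteoblast markers, 6 were called higher, and their summed signal went from between 2108 and 2773 on central arrays to between 82199 and 99647 on endosteal arrays. These sums include Col1a2, Col1a1 and Sparc, with endosteal means of 37317, 20221 and 18731. The marker not called was Sp7 (1.42, limma adjusted p = 0.0661). Bglap, Bglap2, Runx2 and Spp1 were listed but not measured. Col1a1, the cargo chain itself, rose by 6.34. Skeletal muscle markers were called higher in 10 of 10, with sums of 535 to 910 in central and 66162 to 134040 in endosteal RNA. Endosteal array A was highest for all 10 of them, and for 6 of 7 osteoblast, 6 of 8 cartilage and 6 of 10 endothelial markers. It was highest for 3 of 9 neutrophil, 1 of 9 B lymphocyte and 0 of 7 erythroid markers. Endothelial markers were higher in 7 of 10 (sums 1382 to 1868 and 4643 to 4976) and cartilage markers in 5 of 8 (303 to 376 and 3515 to 6776). Neutrophil markers were called higher in 4 of 9 and lower in 1, B lymphocyte markers lower in 3 of 9, and erythroid markers in 0 of 7 (2 lower at an unadjusted p below 0.05 in limma, where 11.3% of all genes were lower). How much each cell type contributed to the secretory genes was not tested. The ratio of the 3′ to the 5′ probe set of the control transcript Actb was 1.15 to 1.23 on central and 1.32 to 1.40 on endosteal arrays, that of Gapdh 0.820 to 0.888 and 0.767 to 0.881, and the part of RNA length in the changes was not tested.

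The number of calls depended on how the arrays were put on one scale. Centring each array on its median moved the median of all genes by -0.27 and left 10 of the 17 calls (5.29% of all genes higher). It ended those of Hspa5, Canx, Pdia3, Pdia6, Ssr2, Ssr3 and Creb3l2 and called Colgalt1 and Tram1 lower (11.1% of all genes lower). Scaling to the poly-A controls, spiked transcripts that read lower on all endosteal arrays, moved that median by 1.00 and called 45 of the 47 genes higher, beside 67.2% of all genes. After quantile normalisation 16 were called (6.39% of all genes). Serpinh1, Plod2, Crtap, Fkbp7, Fkbp9, Fkbp14, Rcn3, Sec24d, Kdelr2 and Kdelr3 were called under each of these 3 scalings.

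The background moved with the other settings too. A pseudocount of 1 or 64 called 17 and 20 of the genes, against 6.33% and 10.2% of all genes. An intensity trend in the variance called 25 (12.2%) higher and Colgalt1 and Tram1 lower (9.31%), and the letter as a random block called 20 (9.33%) higher. The mean of all probe sets called 10 (6.11%). It ended the calls of Hspa5, Canx, Pdia3, Pdia6, Fkbp14, Ssr2, Ssr3, Kdelr2 and Creb3l2 and added P4ha1 and Ppib. Leaving out central array A, B or C gave 7, 8 and 8 calls, against 3.47%, 3.02% and 4.01% of all genes, and leaving out endosteal array A, B or C gave 8, 8 and 12, against 4.22%, 3.68% and 5.1%.

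**Figure D5:**
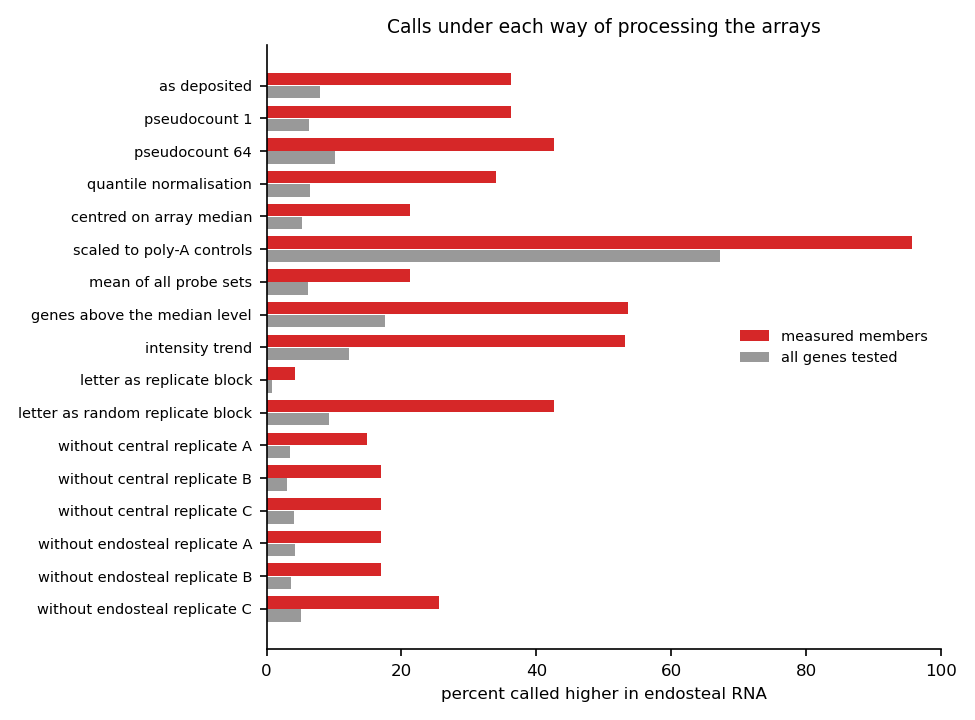
Percent of the measured genes of the set (red) and of all genes tested (grey) called higher in endosteal RNA under each way of processing the arrays. The red bar is longer than the grey one throughout, from 4.26% against 0.786% with the letter as a block to 95.7% against 67.2% with poly-A scaling.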

How the data were processed

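RNA of 3 central and 3 endosteal samples was labelled with a one-cycle kit and hybridised to 6 arrays, per the labels' protocols. The authors deposited a linear signal intensity per probe set; the summary software is not given in the sources used here. The mean signal without the lowest and highest 2% was about 500.003 on every array, so each appears scaled by 1 factor. Between 15.9% and 20.1% of probe sets per array lay below 16.

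Names came from the array's annotation table and RefSeq (GRCm38.p6); probe sets naming 1 gene, controls excluded, gave 18193 genes, each taken as its brightest probe set. limma 3.58.1 in R 4.3.3 (lmFit, eBayes, region only) was fitted over all genes and tested on simulated data with 200 changed genes. There it recovered 20.55% of log2 changes of 1, 48.21% of changes of 2 and 87.32% of changes of 4. Of its calls, 6.31% were false. The real fit called 1441 genes higher and 731 lower, far more than the 200 changed in the simulation. The adjusted p depends on how many genes change, so these shares do not carry over to the real arrays. A gene that was not called may still differ. Named with array values were the 2 largest changes per role group, and others chosen after values were seen. Genes, lists and tests were chosen with earlier results of these data known.

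The series' design text gives 3 individual mice for both regions, and the labels do not tie letters to mice. Same-letter deviations from the region means correlated at 0.05, 0.04 and 0.01 over all genes and at 0.26, 0.13 and 0.10 above the median level. Alternatives were the pseudocount, scaling, probe set rule, level filter, trend, replicate block and leaving out arrays.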

Additional observations from a re-analysis of the deposited data

How the results depend on the processing

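The count of 17 genes called higher moved by over 1.5 times to 10 with median centring, 45 with poly-A scaling, 10 with the mean of all probe sets, 10 when the brightest probe sets were tested among all probe sets, and 2 with the letter as a replicate block. Leaving out 1 array gave 7 to 12. It stayed between 16 and 25 in the other fits. The count of 0 called lower became 2 with centring (Colgalt1, Tram1), 1 among genes above the median level (Colgalt1) and 2 with an intensity trend (Colgalt1, Tram1), and was 0 in every other fit. With poly-A scaling the changes of Calr, Colgalt1, Tram1, Mia3, Atf6, Ddit3 and Herpud1 turned to 0.75, 0.60, 0.73, 0.64, 0.80, 0.88 and 0.82, all called. The mean of all probe sets turned Pdia6 to -0.17 (adjusted p = 0.808). The letters give no certain pairing, so calls lost with the block are not read as weaker effects. Low signal limits P4ha2, P4ha3, Kdelr3, P3h1, Fkbp14 and Pdia4, whose levels were not above the median of all genes.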
